A study of Mus musculus with 12 samples.

Results

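The myosin heavy chain genes Myh6, Myh7, Myh7b, Myh9, Myh10 and Myh11 and the myosin-binding gene Mybpc3 were followed in mouse embryonic stem (ES) cells on their way to cardiomyocytes. These 7 genes were chosen by name, out of 17798 gene symbols found on the array. Total RNA from 6 samples was measured on an Affymetrix mouse exon array, which carries several probe sets (small groups of probes) along each gene. Day 0 stands for undifferentiated ES cells, day 7 for embryonic bodies (aggregates of differentiating ES cells) and day 14 for cardiac bodies, each stage with 2 replicates. All stages shared a DMEM-based medium with serum, and the labels name no ES cell line, genotype, treatment or transgene. Nor do they say whether the replicates were separate cultures, so the p-values rest on a spread among samples that may be technical.

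Myosin heavy chains are the motor subunits of conventional myosins: a head that binds actin and hydrolyses ATP, and a long coiled-coil tail that assembles into filaments. Myh6 encodes the alpha chain and Myh7 the beta chain of the cardiac sarcomere. They lie next to each other in the genome, and in the mouse the beta chain is the main chain of the fetal ventricle and the alpha chain that of the adult heart. Mybpc3 encodes cardiac myosin-binding protein C, which sits on the thick filament and tunes cross-bridge cycling. Myh9 and Myh10 encode the heavy chains of non-muscle myosin IIA and IIB, which drive cell shape, adhesion and cytokinesis, and Myh11 encodes the smooth muscle heavy chain. Myh7b, expressed in slow skeletal muscle, heart and brain, hosts a muscle microRNA in an intron.

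The genes differ in how they could be measured. Myh9, Myh10, Myh11 and Mybpc3 each had 1 gene-level row (a transcript cluster, the array's summary of a gene) that carried no other symbol. Myh6 and Myh7 shared their gene-level row, and were read from exon-level probe sets with a single symbol, 39 for Myh6 and 27 for Myh7. The others had 47 (Myh9), 46 (Myh10), 48 (Myh11) and 34 (Mybpc3) such probe sets, which made 241 in all. The mean of a gene's probe sets is called its exon-level mean here. Both levels come from the same arrays, so they are not independent readings. Myh7b had no row of its own at either level: its 4 gene-level rows and 70 probe sets also carried a neighbouring gene's symbol. Values are log2 signals as deposited. A change is a difference of log2 signals ± its standard error from limma, a linear model fitted across all genes (n = 2 per stage), and was called at an adjusted p under 0.05.

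The sample labels were checked on marker lists, using exon-level means. Of 6 measured cardiomyocyte markers, 6 were called higher at day 14 than at day 0, as were 7.45% of all genes. The mean of these markers lay at 5.55 and 5.57 in ES cells, 6.04 and 6.55 in embryonic bodies and 11.44 and 11.31 in cardiac bodies. The mean of 6 ES cell markers was 10.65 and 10.67 at day 0, 7.51 and 7.57 at day 7, and 9.49 and 9.97 at day 14, so the cardiac bodies carried ES cell markers at levels nearer to those of ES cells than of embryonic bodies. Of 9 skeletal muscle markers none was called at day 7 and 1, the creatine kinase gene Ckm, was higher at day 14. The mean of the skeletal muscle list stayed between 5.61 and 6.26 in the 6 samples. Markers of other cell types also moved with the stages. At day 7 against day 0, 5 of 6 endothelial markers were higher and 1 lower, and 4 of 6 epithelial markers were higher. Of all genes 10.6% were called higher in that comparison and 11.9% lower. At day 14 against day 0, where 7.45% of all genes were higher, 3 of 6 endoderm markers were higher. They were the liver and yolk sac genes Afp (by 5.37), Alb (5.28) and Apoa1 (2.01). The part of these cell types in the changes of the myosin genes was not tested. In bulk RNA, a larger share of cells of a type and more RNA per cell cannot be told apart.

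Myh7 rose by day 7 and again by day 14. Its exon-level mean was 4.84 and 4.79 in the ES cell samples, 7.21 and 9.11 in the embryonic bodies and 10.49 and 10.62 in the cardiac bodies. The stages did not overlap, and the samples of day 7 lay far apart. The rise by day 7 was 3.35 ± 0.52 (limma adjusted p = 0.00371), with 73 of 14519 genes showing a larger one. It was 2.40 without replicate 2 of day 7 and 4.29 without replicate 1, and passed the test both ways. A further rise of 2.39 ± 0.52 followed by day 14 (adjusted p = 0.0264). Its size depended on the day 7 samples, being 1.44 without replicate 1 of day 7 and 3.34 without replicate 2. The call was lost without either cardiac body sample (adjusted p = 0.0973 without replicate 1 and 0.0984 without replicate 2).

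Myh6 rose between day 7 and day 14. Its exon-level mean was 5.39 and 5.36 at day 0, 5.66 and 6.46 at day 7 and 12.04 and 11.71 at day 14. Both day 7 samples lay above both ES cell samples by little, and the cardiac bodies stood far above the rest. The difference at day 7 was 0.69 ± 0.28 (95% interval 0.04 to 1.34, limma adjusted p = 0.124) and did not pass the test. Without replicate 1 of day 7 it was 1.09. The median change over the 39 probe sets was lower, at 0.39, and 4 of the 39 rose by 2 or more. The mean of 0.69 thus rests in part on few probe sets. From day 7 to day 14 Myh6 rose by 5.82 ± 0.28, a 56.3-fold increase in signal, and only 4 of 14519 genes rose more. Against day 0 the rise was 6.50 ± 0.28 (limma adjusted p = 2.06e-05) for Myh6 and 5.74 ± 0.52 for Myh7 (adjusted p = 0.000513).

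**Figure D1:**
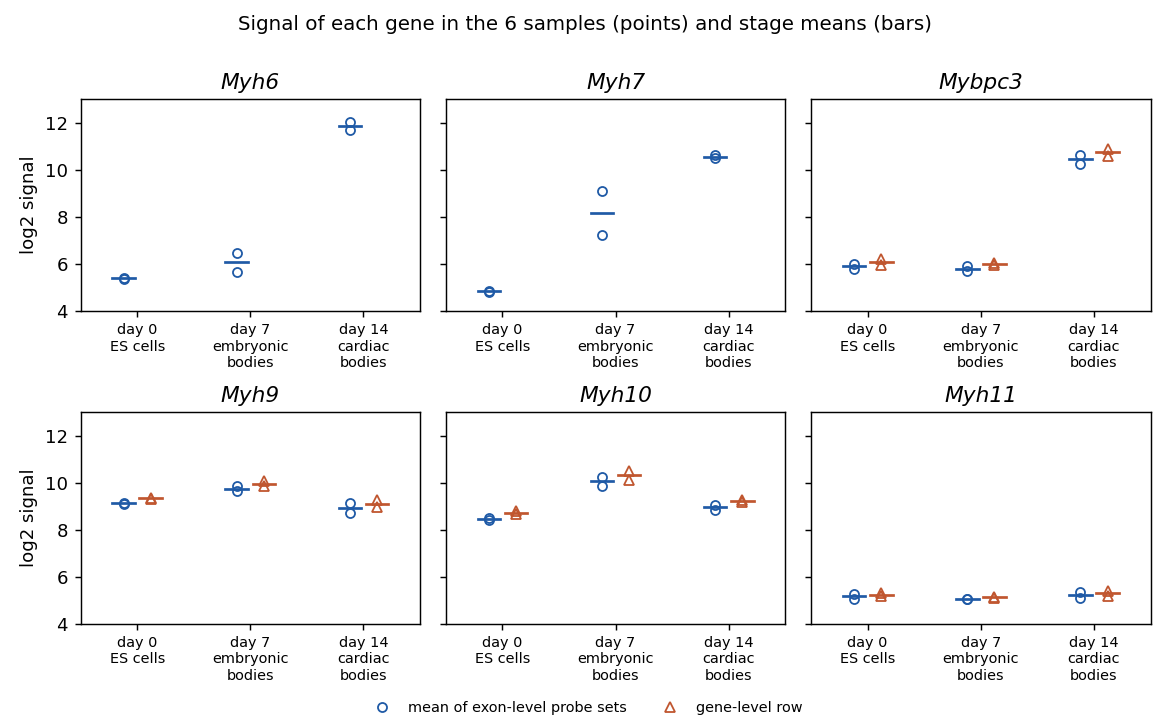
Log2 signal (y axis) of 6 genes in the 6 samples by stage (x axis). Open points are samples, circles for the mean of the exon-level probe sets and triangles for the gene-level row where the gene has its own, and bars are the means of the 2 samples. Myh7 is already raised at day 7, Myh6 and Mybpc3 are high at day 14, Myh9 and Myh10 are highest at day 7, and Myh11 stays low.

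The change of the pair between stages was read from the log2 level of Myh7 minus that of Myh6 in each sample, whose sign gives no order of the genes because their probes differ. At day 0 both genes lay below 5.50, the 25th percentile of all exon-level means, so that changes from day 0 start near the floor of the signal. The difference was -0.55 and -0.56 at day 0, 1.55 and 2.65 at day 7, and -1.55 and -1.09 at day 14. It was highest in both embryonic body samples and lowest in both cardiac body samples, and no stages overlapped. It moved by 2.66 from day 0 to day 7 and by -3.42 from day 7 to day 14. An exact 2-sided permutation test gave p = 0.333 for each of the 3 pairs of stages, the smallest value that 2 samples against 2 allow. With medians of the probe sets in place of means the differences at day 7 were 1.55 and 3.03.

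Single probe sets of both genes were counted next. At day 7, 15 of 27 Myh7 probe sets and 3 of 39 Myh6 probe sets were called higher than at day 0, where 4.5% of all 229581 probe sets were. At day 14, 24 of 27 and 39 of 39 were called higher than at day 0, against a background of 2.79%, and against day 7 the counts were 4 of 27 and 37 of 39, with a background of 1.93%. Called or not, all 27 Myh7 probe sets lay above their day 7 level at day 14, by 1.17 or more (median 1.95). The share of the log2 rise from day 0 to day 14 that was already reached at day 7 had a median of 58.1% over the Myh7 probe sets (quartiles 43.1% and 74.6%) and of 5.82% over those of Myh6. It was over 50% in 18 of 27 Myh7 probe sets and in 2 of 39 of Myh6, and under 20% in 4 and 34. Probe sets of a gene share their samples and are not replicates.

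**Figure D2:**
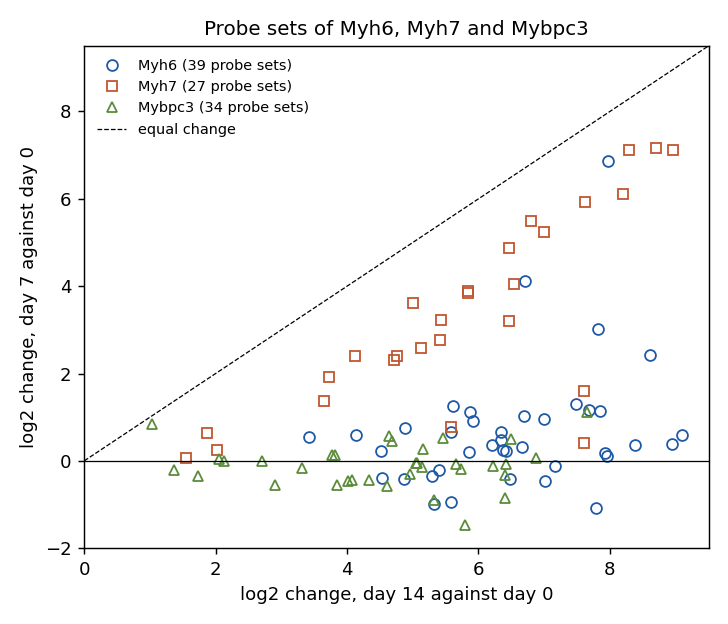
Each point is a probe set of Myh6 (39, circles), Myh7 (27, squares) or Mybpc3 (34, triangles), with its log2 change at day 14 against day 0 on the x axis and at day 7 against day 0 on the y axis. Most Myh7 probe sets lie along a line rising towards equal change (dashed), most Myh6 and Mybpc3 probe sets lie near 0 on the y axis, and a few probe sets of each heavy chain lie with the other gene.

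Some probe sets went with the other gene. They were picked after their values were seen, so they get no reading beyond their levels. The Myh6 probe set 4306243 gave 5.97 and 5.18 at day 0, 11.61 and 13.25 at day 7 and 13.56 and 13.54 at day 14. Its rise by day 7 was the largest of the 39. The Myh6 probe sets 4756586 (9.13 and 11.29) and 5511085 (7.54 and 9.68) also stood high at day 7. Conversely, the Myh7 probe set 5485998 gave 2.06 and 3.02, then 2.23 and 3.65, and 10.15 and 10.14 at day 14. Probe set 5413252 of Myh7 gave 5.03 and 6.80 at day 7 and 12.44 and 11.38 at day 14. Myh6 and Myh7 are near-identical copies, and the Mhrt RNA is transcribed from the opposite strand of the Myh7 locus. How strand was handled is not described. The match of these probe sets to the other gene or strand was not tested, so the separate values of the pair are uncertain to that extent.

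The gene-level row shared by both (cluster 6824785) gave 5.17 and 4.97 at day 0, 5.93 and 6.67 at day 7 and 11.17 and 11.10 at day 14. Its change at day 7, 1.22 ± 0.28, narrowly missed the threshold (limma adjusted p = 0.0505), and it rose by 6.06 ± 0.28 by day 14 (adjusted p = 0.0018). Both embryonic body samples lay above both ES cell samples on this row too.

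Among these genes, the embryonic bodies differed from each other most in Myh7. All 27 of its probe sets were higher in replicate 2 than in replicate 1, by a median of 1.94, and so were 31 of 39 Myh6 probe sets, by a median of 0.84. Of the Mybpc3 probe sets 14 of 34 were higher in replicate 2. Beside it, replicate 2 of day 7 had the higher level for 4 of 6 cardiomyocyte markers (median difference 0.28) and for 4 of 6 endothelial markers (0.80). The cardiomyocyte markers differed widely in this. Actc1 read 6.87 and 9.03 in replicates 1 and 2, and Pln 4.51 and 5.68. Ryr2 (6.18 and 5.45) and Tnnt2 (7.90 and 7.81) were lower in replicate 2. All 6 fibroblast markers were lower there, with a median difference of -1.35 for replicate 2 minus replicate 1, and so were all 5 measured blood and all 6 endoderm markers. The part of cell composition in the Myh7 difference was not tested. In the cardiac bodies, 3 of 39 Myh6 and 4 of 34 Mybpc3 probe sets were higher in replicate 2, while all 6 ES cell markers were, by a median of 0.49, and their part was not tested either. The median of all probe sets was 7.22 in replicate 1 and 7.42 in replicate 2 of this stage. The differences given here are not corrected for that shift.

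**Figure D3:**
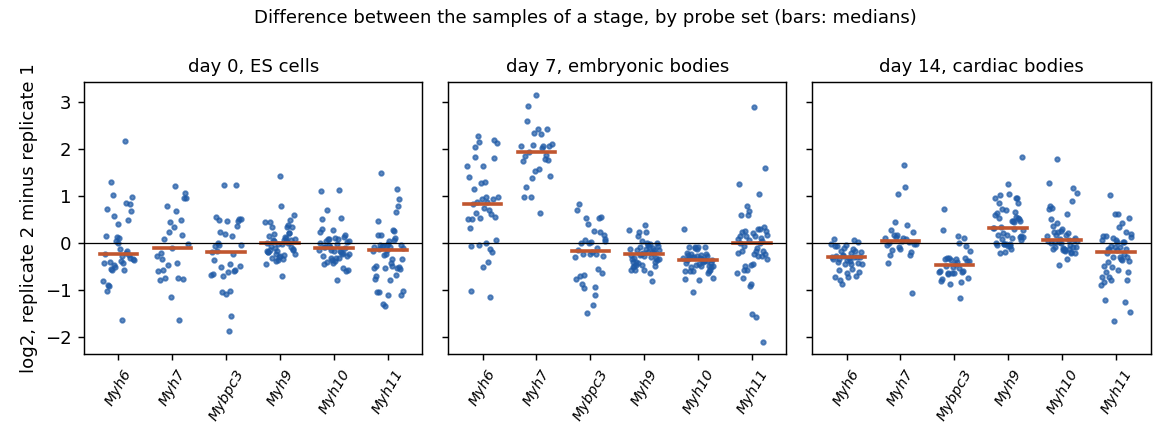
Log2 signal of replicate 2 minus replicate 1 (y axis) for every probe set of 6 genes (x axis), in 3 panels by stage, with bars at the medians. At day 7 all Myh7 probe sets lie above 0 around a median of 1.94, and at day 14 most Myh6 and Mybpc3 probe sets lie below 0.

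Mybpc3 rose between day 7 and day 14. Its gene-level row (cluster 6879022) read 6.22 and 5.93 at day 0, 6.01 and 5.94 at day 7 and 10.88 and 10.61 at day 14. The samples of days 0 and 7 overlapped, and the cardiac bodies lay well above both. The change at day 7 was -0.10 ± 0.20 (95% interval -0.59 to 0.40), and the rise from day 7 to day 14 was 4.77 ± 0.20 (limma adjusted p = 0.00206), a 27.3-fold increase. Of its 34 probe sets none was called at day 7, when 18846 of all 229581 were. At day 14, 31 were called higher against either earlier stage, as were 2.79% (against day 0) and 1.93% (against day 7) of all probe sets. On exon-level means Mybpc3 lay at a root mean square distance of 0.85 from Myh6 and 1.56 from Myh7, after each gene's mean over the 6 samples was subtracted.

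The promoters of the cardiac genes are printed here because these genes are the members that rose by day 14, with that of Myh10 beside them as the other member that rose by day 7. Each window runs from 250 bases before to 50 bases after the RefSeq start site (build GRCm38.p6), 5′ to 3′ on the gene's strand. Capitals mark matches on either strand to GATA (bound by GATA factors), the M-CAT element CATTCC (TEAD factors), the TATA box TATAAA, the CArG box (serum response factor) and the MEF2 site.
Myh6, chr14:54966558-54966857, minus strand: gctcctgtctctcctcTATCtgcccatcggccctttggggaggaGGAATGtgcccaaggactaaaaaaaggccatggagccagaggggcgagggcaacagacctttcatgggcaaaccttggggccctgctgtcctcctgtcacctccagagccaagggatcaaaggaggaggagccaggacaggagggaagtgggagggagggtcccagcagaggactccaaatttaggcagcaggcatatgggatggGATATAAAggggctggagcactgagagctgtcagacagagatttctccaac
Myh7, chr14:54994577-54994876, minus strand: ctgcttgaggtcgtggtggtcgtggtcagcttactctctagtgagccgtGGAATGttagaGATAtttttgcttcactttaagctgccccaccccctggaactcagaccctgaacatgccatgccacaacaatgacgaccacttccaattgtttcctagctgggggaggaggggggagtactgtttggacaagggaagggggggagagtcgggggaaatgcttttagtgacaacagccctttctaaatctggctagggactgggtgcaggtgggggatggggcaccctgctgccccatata
Mybpc3, chr2:91117894-91118193, plus strand: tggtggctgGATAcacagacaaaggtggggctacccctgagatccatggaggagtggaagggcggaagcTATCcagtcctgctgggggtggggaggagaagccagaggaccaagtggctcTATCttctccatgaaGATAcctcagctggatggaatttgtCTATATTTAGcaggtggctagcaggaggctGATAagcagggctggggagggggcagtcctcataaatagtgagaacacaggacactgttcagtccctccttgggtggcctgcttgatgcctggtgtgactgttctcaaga
Myh10, chr11:68691665-68691964, plus strand: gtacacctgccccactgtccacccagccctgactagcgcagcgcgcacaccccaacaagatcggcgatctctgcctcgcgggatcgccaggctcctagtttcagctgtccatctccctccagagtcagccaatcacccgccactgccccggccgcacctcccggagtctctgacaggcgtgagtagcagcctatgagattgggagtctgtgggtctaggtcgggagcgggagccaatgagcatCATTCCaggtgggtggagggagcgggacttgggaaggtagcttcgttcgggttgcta

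The M-CAT letters matched 1 time each in the windows of Myh6 (first base at -206 from the start site), Myh7 (-201) and Myh10 (-7), where 14.7% of all 32851 promoter windows hold them. GATA matched 2 times in Myh6, 1 time in Myh7 and 5 times in Mybpc3, and 57.9% of all windows hold it. A MEF2 site matched in Mybpc3 at -90, as in 3.19% of all windows, and TATAAA in Myh6 at position 2, where it overlaps a GATA match and where 13.6% of windows hold it. No CArG box matched in these windows (1.63% of all hold it). A second Myh7 start site lies 77 bases downstream, and its window held none of these motifs. A match is a description of letters, not of binding. The windows also differed in base composition, without a test. The observed over expected CpG ratio was 0.0833 for Myh6, 0.232 and 0.0847 for the start sites of Myh7, 0.0477 for Mybpc3 and 0.18 for Myh7b, but 0.636 for Myh9 and 0.612 for Myh10, around a median of 0.384 over all windows.

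Of the non-muscle chains, Myh10 rose in embryonic bodies. Its gene-level row (cluster 6781941) read 8.78 and 8.65 at day 0, 10.52 and 10.14 at day 7 and 9.17 and 9.26 at day 14. The stages did not overlap, with day 7 highest and day 14 above day 0. The rise by day 7 was 1.61 ± 0.20, or 3.05-fold (limma adjusted p = 0.0105). On this row the call was lost without replicate 1 (adjusted p = 0.056) or 2 (0.0664) of day 0 or replicate 1 of day 7 (0.0522), while on exon-level means (1.61 ± 0.20, adjusted p = 0.00158) it held without any single sample. The change from day 7 to day 14 was -1.11 ± 0.20 at both levels. It passed the test on exon-level means (adjusted p = 0.014) and narrowly missed it on the gene-level row (0.0546). Without replicate 1 of day 7 or replicate 1 of day 14 the exon-level call was lost too (adjusted p = 0.0631 and 0.0748). At day 14 the difference from day 0 was 0.50 ± 0.20 (95% interval 0.00 to 1.00, adjusted p = 0.287).

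The values of Myh9 were also highest in the embryonic bodies. Its gene-level row (cluster 6836973) read 9.36 and 9.33 at day 0, 10.07 and 9.85 at day 7 and 8.95 and 9.27 at day 14. On this row both embryonic body samples lay above the rest and both cardiac body samples below the ES cells. The exon-level means were 9.10 and 9.14 at day 0, 9.86 and 9.63 at day 7 and 8.72 and 9.12 at day 14, so that there days 0 and 14 overlapped. The difference at day 7 was 0.62 ± 0.20 (95% interval 0.13 to 1.11, limma adjusted p = 0.117) and did not pass the test. From day 7 to day 14 the difference was -0.85 ± 0.20 on the gene-level row (adjusted p = 0.0941), and on exon-level means Myh9 fell by 0.82 ± 0.21 (adjusted p = 0.0453). That call was lost when the 2 stages were fitted alone (limma adjusted p = 0.0817). Leaving out either ES cell sample amounts to the same fit, because 1 sample left in that stage gives no spread. The call was also lost without either replicate of day 7 and without replicate 1 of day 14. It was lost too when the median of the probe sets replaced their mean (limma adjusted p = 0.0628).

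Within both non-muscle genes, nearly all probe sets ran in the direction of the gene. All 46 Myh10 probe sets were above their day 0 level at day 7, by 0.31 to 2.65. All 46 were also lower at day 14 than at day 7, but none was called lower. In that comparison 6008 of all 229581 probe sets were called, in either direction. At day 7, 35 of 46 were called higher, as were 4.5% of all probe sets. Of 47 Myh9 probe sets, 46 were above day 0 at day 7 and all 47 below day 7 at day 14, with changes of -1.21 to -0.21, but none was called in any comparison. Against day 0, 18846 of all 229581 probe sets were called at day 7 and 7444 at day 14. Epithelial and endothelial markers moved over the same stages. The epithelial list had a median change of 2.66 at day 7 against day 0 and of -2.88 at day 14 against day 7, when 4 of 6 fell. The endothelial list had 3.36 and -2.96, when 5 of 6 fell. Of all genes 3.75% were called lower at day 14 against day 7. The part of these cell types in the values of Myh9 and Myh10 was not tested. Among the members, Myh9 and Myh10 lay at a distance of 0.42 from each other. Myh9 lay at 0.47 and Myh10 at 0.75 from Myh11, whose level hardly varied, and at 3.17 and 3.10 from Myh6. Genes that change little lie close together by this distance, so it does not show a shared pattern.

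Myh11 stayed low. Its gene-level row (cluster 6844112) read 5.32 and 5.16 at day 0, 5.15 and 5.10 at day 7 and 5.41 and 5.20 at day 14, all below the median of 6.62 of all gene-level values. The stages overlapped, and the 95% intervals of its changes were -0.56 to 0.33 at day 7 and -0.38 to 0.51 at day 14, both against day 0. None of its 48 probe sets was called in any comparison. Few were called on the whole array: of 229581 probe sets, 18846 at day 7 and 7444 at day 14 against day 0. At day 14 against day 7 there were 6008. On exon-level means some other smooth muscle genes did rise. Acta2, smooth muscle actin, stood at 5.51 and 5.43 at day 0, 12.84 and 12.04 at day 7 and 12.79 and 12.72 at day 14. Tagln, the actin-binding transgelin, rose by 2.88 ± 0.38 by day 7, to 7.35 and 8.51. Cnn1, calponin, was called at day 14 against day 0, with levels of 5.99 and 7.01 at day 7 and 8.98 and 7.67 at day 14. Of 6 measured genes of the smooth muscle marker list, 2 were called higher at day 7 and 4 at day 14 against day 0, with backgrounds of 10.6% and 7.45% of genes. Smtn and Lmod1 of this list were called in neither, with changes of 0.34 and -0.29 at day 14 against day 0.

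**Figure D4:**
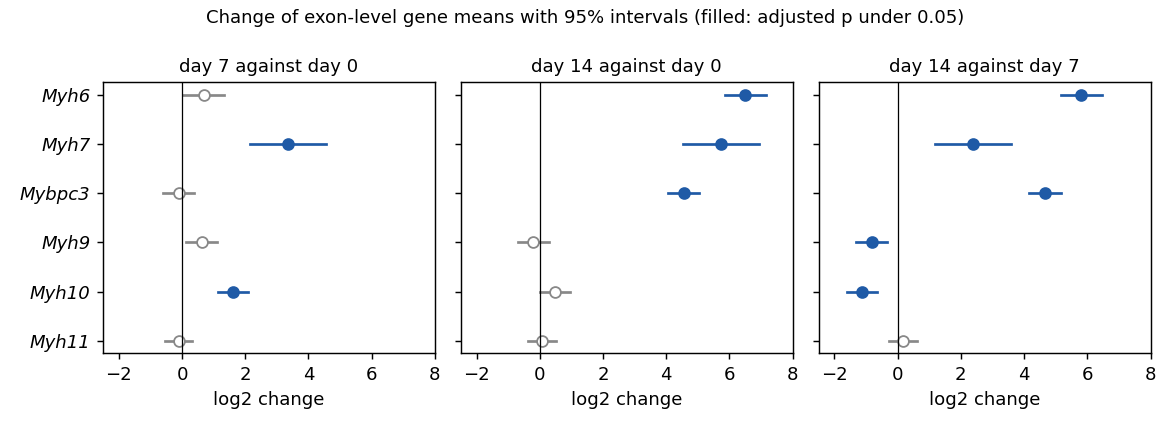
Log2 change of exon-level means (x axis) of 6 genes (y axis) in the 3 comparisons, with 95% intervals from the limma fit and filled points for an adjusted p under 0.05. Myh7 and Myh10 pass the test at day 7, Myh6, Myh7 and Mybpc3 at day 14 against both earlier stages, and Myh9 and Myh10 are lower at day 14 than at day 7.

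Counted together on exon-level means, 2 of 6 measured members, Myh7 and Myh10, were called higher at day 7 against day 0 and none lower. Of all 14519 genes 22.5% were called in this comparison, 10.6% higher and 11.9% lower. At day 14 against day 0, Myh6, Myh7 and Mybpc3 were higher and none was lower, where 10.4% of genes were called, 7.45% higher and 2.95% lower. At day 14 against day 7 the same 3 were higher and Myh9 and Myh10 lower, where 10.9% of genes were called, 7.19% higher and 3.75% lower. At gene level 1 of 4 was called in each comparison, Myh10 at day 7 and Mybpc3 at day 14, with backgrounds of 10.6%, 3.32% and 3.13% in the same order.

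Exon usage could be tested for Myh9 and Myh10, and for Myh7 at day 14 against day 7 alone. The test called no probe set of any gene on the array in any comparison, so its lack of calls says nothing particular to these members. Exon usage was taken as a probe set's signal minus the median of its gene in the same sample, in genes above the median signal in both stages. None of the 92 probe sets of Myh9 and Myh10 tested at day 7 or day 14 against day 0 was called by limma, with 3 and 4 at an unadjusted p under 0.05, and the test called 0% of all 95498 and 99106 probe sets tested, with 7896 and 5593 at an unadjusted p under 0.05. At day 14 against day 7, 118 were tested, among them 26 of Myh7, and none was called of these or of all 100843, of which 4826 had an unadjusted p under 0.05. Myh7 held the widest range, from -1.16 to 4.88, and 10 of its 26 probe sets had an unadjusted p under 0.05. The highest value is that of probe set 5485998, whose levels are given above. Of Myh9 and Myh10, all usage differences lay between -0.95 and 0.94. With each probe set centred on the median of the other probe sets of its gene, a setting chosen after seeing the data, limma again called 0 among the members, and 1, 0 and 0 over all genes.

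Myh7b could not be separated from its neighbours. Its rows carried the symbol of Acss2 (acetyl-CoA synthetase), Ncoa6 (a nuclear receptor coactivator), Ggt7 or Trpc4ap beside its own. The row shared with Acss2 read 7.90 and 7.12 at day 0, 7.91 and 6.65 at day 7 and 8.51 and 7.96 at day 14, and those shared with Ncoa6 and Trpc4ap lay between 8.74 and 10.10 in the 6 samples. The row shared with Ggt7 read 6.36 and 6.35, 6.38 and 6.38, and 6.83 and 6.91, so that day 14 lay above the rest by more than the samples of a stage differed. None of the 4 rows was called, the largest change at day 14 against day 0 being 0.72 ± 0.50 in the row shared with Acss2 (limma adjusted p = 0.548). Of the 70 shared probe sets 1 was called, among the 17 shared with Ggt7, as higher at day 14 than at day 7. Of all probe sets 1.93% were called higher in that comparison, so this count is near the background. The values cannot be assigned to Myh7b.

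Each of 3 heavy chain genes hosts a microRNA in an intron: miR-208a in Myh6, miR-208b in Myh7 and miR-499 in Myh7b. None of the 3 had exon-level means here, so no level is given for them, and their sequences are shown to identify what these introns encode. The mature RefSeq sequences, with the seed (bases 2 to 8) in capitals, are as follows (GRCm38.p6, chr14:54949072-54949093 and chr14:54975710-54975731 on the minus strand, chr2:155622893-155622913 on the plus strand).
mmu-miR-208a-3p: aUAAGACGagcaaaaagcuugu
mmu-miR-208b-3p: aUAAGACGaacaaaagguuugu
mmu-miR-499-5p: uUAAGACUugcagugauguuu
The miR-208 pair has the same seed, UAAGACG, while that of miR-499-5p is UAAGACU.

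Other genes of the pathway were read from lists, on exon-level means. Of 12 further heavy chain and myosin-binding genes 7 were measured, and Mybphl, a myosin-binding protein H-like gene known from the atria, rose by 3.08 ± 0.35 at day 14 against day 0 (limma adjusted p = 0.00136), and was also called against day 7. Mybpc2, the fast skeletal form, fell by 0.66 ± 0.19 at day 7 (limma adjusted p = 0.0389), when 11.9% of all genes were called lower. Its stage means of 5.87 at day 0 and 5.20 at day 7 lay near 5.50, the 25th percentile of all exon-level means. The list's median changes were -0.22 at day 7 and -0.06 at day 14, beside -0.08 and -0.02 over all genes. Myh14, the third non-muscle heavy chain, picked for its kinship with Myh9 and Myh10 and after its values were seen, was not called, with changes of -0.49 at day 7 and -0.34 at day 14.

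Of 7 measured genes for the folding and turnover of myosin, none was called at day 7, the largest change being 0.66 ± 0.20 for Unc45b (limma adjusted p = 0.0544), and 3 were higher at day 14 against both earlier stages. Of all genes 7.45% were higher against day 0 and 7.19% against day 7. The list's median change was 0.31 at day 14 against day 0, beside -0.02 over all genes. Unc45b, the muscle chaperone of myosin heads, rose by 2.85 ± 0.20 against day 0 (limma adjusted p = 0.000176), Smyd1, a muscle methyltransferase that assists thick filament assembly, by 3.29 ± 0.28, and Fbxo32, a muscle ubiquitin ligase subunit, by 2.07 ± 0.18. All 3 measured cardiac light chains rose at day 14 (Myl2 by 8.12 ± 0.18, Myl7 by 5.38 ± 0.22 and Myl4 by 4.93 ± 0.23) and none was called at day 7, when the largest change was 0.52 ± 0.23 (Myl4, adjusted p = 0.165). Myl2, the ventricular regulatory light chain, read 3.84 and 3.79 at day 7, when Myh7 was at 7.21 and 9.11.

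Some transcription regulators known to act on Myh6 or Myh7 were called higher at day 7. Of 16 measured, 6 were higher and 1 lower at day 7, 8 higher at day 14 against day 0, and 3 higher at day 14 against day 7, where 10.6%, 7.45% and 7.19% of all genes were higher and 11.9% lower at day 7. The median changes were 0.64, 1.24 and 0.22, beside -0.08, -0.02 and 0.07 over all genes. Mef2c rose by 3.28 ± 0.34 by day 7 (limma adjusted p = 0.000668) and Gata4 by 2.24 ± 0.36 (adjusted p = 0.00448), both muscle and heart transcription factors, and Mef2a by 2.20 ± 0.22. Gata4 read 9.60 and 8.40 at day 7, with replicate 1 higher, while Mef2c read 7.48 and 8.42, with replicate 2 higher as in Myh7. By day 14 Myocd, a coactivator of serum response factor, stood 4.97 ± 0.20 and the T-box factor gene Tbx5 4.95 ± 0.43 above day 0, with Mef2c at 3.32 ± 0.34. Against day 7, Tbx5 rose by 3.57 ± 0.43 (limma adjusted p = 0.00248) and the homeobox factor gene Nkx2-5 by 1.81 ± 0.23 (adjusted p = 0.0033), and Myocd was the other called (adjusted p = 0.000219). These comparisons share samples with those of the myosin genes.

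Of 8 measured partners and regulators of non-muscle and smooth muscle myosin, 1 was called higher in each comparison, the light chain gene Myl9, a share near that of all genes called higher (10.6%, 7.45% and 7.19%). It was at 5.83 ± 0.12 at day 0, 7.70 ± 0.43 at day 7 and 12.57 ± 0.44 at day 14 (SD, n = 2), and rose by 1.86 ± 0.29 by day 7 (limma adjusted p = 0.00353) and by 4.87 ± 0.29 after it. The other 7 were not called. The median changes of the list were 0.08, 0.06 and -0.04 in the 3 comparisons, beside -0.08, -0.02 and 0.07 over all genes.

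The genes nearest to each member in pattern were found by the root mean square difference over the 6 samples after subtracting each gene's mean. For Myh6 they were Mlip (0.37), Tecrl (0.40) and Actn2 (0.47), for Mybpc3 Myoz2 (0.13), Xirp1 (0.23) and Mb (0.25), and for Myh7 Cap2 (0.39), Antxr2 (0.56) and Cacnb2 (0.59). For Myh10 they were Tceal9 (0.08), Gpm6b (0.11) and Hgsnat (0.11), for Myh9 Lsr (0.05), Dis3l2 (0.05) and Erlin2 (0.07), and for Myh11, whose level hardly varied, H2-M2, Thsd7b and Fam174c (0.01 to 0.03). Of the neighbours of Myh6 and Mybpc3, several are known from striated muscle, among them Actn2 (alpha-actinin), Myoz2 (a Z-disc protein), Xirp1 (a protein of the intercalated disc) and Mb (myoglobin). The other neighbours were not sorted by tissue. The order of these distances carries no test.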

How the data were processed

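The deposited values are log2 signals. The submitters' processing notes name RMA, a method of background correction, normalization and probe summary, and Affymetrix Power Tools, without versions in the sources used here. Ribosomal RNA was reduced before labelling, per the labels' protocols. Core probe sets defined on mm9 were used, per the labels' descriptions, giving 23332 gene-level rows and 229581 probe sets. Sample medians lay between 6.47 and 6.79 (gene level) and 7.11 and 7.42 (exon level). Symbols came from the platform annotation, updated through RefSeq GRCm38.p6. Exon-level means were formed for the 14519 genes with 4 or more single-symbol probe sets. All 6 samples entered 1 limma 3.58.1 fit (R 4.3.3, lmFit and eBayes, 2-sided) per table, with p-values adjusted by Benjamini-Hochberg over the whole table, and the fits were tested on simulated data. Usage was tested in genes at or above the 50th percentile and probe sets at or above the 25th. There are no detection calls, a log2 signal understates changes near its floor, and 6 arrays limit the precision. Members, lists and tests were chosen with earlier results of these data known. Named list genes were the up to 3 called per list and comparison with the largest change, or the largest change where none was called, plus the 3 genes nearest in pattern to each member. Marker genes, Myh14 and single probe sets were named after their values were seen. Genes of each list without a measured row were left out. No depth applies to arrays. Replicate numbers were tried as a block, beside other scalings, filters and samples left out.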

Additional observations from a re-analysis of the deposited data

How the results depend on the processing

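Counts of called genes or probe sets were recomputed under other scalings, fits, filters and centres and without each sample: 145 stayed within 1.5 times of the reported count and 11 did not. At gene level the count for day 14 against day 7 went from 1 to 2, by the addition of Myh10, with an intensity trend in eBayes and with low rows filtered out. With a replicate left out, the gene-level count at day 7 ranged from 0 to 1, the exon-level count for day 14 against day 7 from 2 to 4 (5 in all 6 samples), and the count of probe sets called at day 7 from 9 to 41 (53 in all 6 samples), as fewer samples entered. Of the changes of single genes, 347 kept direction and side of the threshold, 14 no longer passed, 4 newly passed and 10 changed sign, none of them called. With a sample left out, Mybpc3 at day 7 on its gene-level row ranged from -0.24 to 0.052 (above 0 without replicate 1 of day 0), Myh9 at day 14 against day 0 on exon-level means from -0.41 to 0.00059 (without replicate 1 of day 14), and Myh11 at day 14 against day 0 from -0.043 to 0.17 on its gene-level row and from -0.052 to 0.19 on exon-level means (below 0 without replicate 2 of day 0 or replicate 1 of day 14). With samples centred on their medians that change of Myh11 was -0.069 and -0.043 at the 2 levels, and with quantile normalization -0.020 and -0.045. Centring moved the median change of all gene-level rows at day 14 against day 0 from -0.027 to -0.16. Without a replicate, a stage of 1 sample is assumed to vary like the others. Except for exon usage, leaving out a sample of the stage not compared repeats the fit of the 2 stages alone. The totals above count such repeats. The 145 also include the exon usage counts, which were 0 for the members under every setting. Those unchanged counts therefore show no stability of a result.

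The labels number the replicates but do not say whether samples of the same number belong together. Differences between replicates 1 and 2 correlated across rows at 0.0826 (days 0 and 7), 0.486 (days 0 and 14) and 0.0913 (days 7 and 14) at gene level. At exon level the values were -0.0038, 0.418 and 0.0254 in the same order. Whether same-numbered samples of days 0 and 14 share a preparation was not tested. With the replicate block, 50 probe sets of the members were called at day 7 instead of 53, and the counts of called members stayed at 2, 3 and 5 on exon-level means. The cause of these shifts was not tested.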
